A study of Mus musculus with 108 samples.

Results

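The genes described here are 179 mouse genes of the Zfp series, named for the zinc finger proteins they encode. They were chosen by symbol (Zfp followed by a number, with 2 symbols left out) and by a mean of 50 or more reads in the 7 polyA libraries of control oocytes at the germinal vesicle (GV) stage. They are 179 of 372 such symbols and of 55573 genes in all. Zfp69 (mean of 50.9 reads), Zfp608 (50.3) and Zfp994 (50) lay just inside the threshold, and Zfp870 (47.9), Zfp595 (45.0) and Zfp984 (44.9) just outside it. Because those 7 oocytes chose the genes, any contrast that uses them is given as a description only.

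The libraries came from single mouse oocytes, taken from controls or from females whose Exosc10 gene was knocked out only in oocytes (cKO). EXOSC10 is a nuclease of the nuclear RNA exosome, the complex that trims and degrades RNA from its 3′ end. The control genotype, the strain, the females' age and the driver of the knockout are not given in the sources used here. GV oocytes are arrested in prophase with an intact nucleus, GV3h oocytes were GV oocytes cultured for 3 h, and MII oocytes were ovulated eggs arrested in the second meiotic division. PolyA libraries hold RNA isolated on oligo(dT) beads by its poly(A) tail, and RiboMinus libraries were primed with random hexamers and depleted of ribosomal RNA. The V number shared by the titles of several oocytes was read as the female they came from, which the labels do not spell out.

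At GV the polyA set held 15 cKO oocytes from 2 females and 7 control oocytes from 2. At GV3h it held 11 cKO and 8 control oocytes from 3 females each, and at MII 15 cKO and 8 control oocytes from 3 each, with 11 of the 15 cKO oocytes from female V897. The RiboMinus set held 7 cKO and 8 control GV oocytes from 2 females each, 4 cKO MII oocytes from 2 females and 3 control MII oocytes from 1 female. Genotype and female therefore cannot be told apart in RiboMinus MII, nor can stage and female in the RiboMinus control series. Oocytes of one female are not independent, so p-values over oocytes partly measure spread within females, and counts of calls among the 179 genes are also given from sums per female, which could not be made where the RiboMinus MII controls, all of 1 female, take part.

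Zinc finger genes form one of the largest families of transcription factors in mammals. Each C2H2 finger is a short loop in which a pair of cysteines and a pair of histidines hold a zinc ion, and arrays of fingers read DNA, or in some proteins bind RNA. Many members also carry a KRAB domain, which recruits the corepressor TRIM28 and through it the methyltransferase SETDB1, and these KRAB proteins are known for silencing retroelements and protecting imprints in oocytes and early embryos.

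By the annotated coding models, 74 genes had 3 or more fingers and a match to the KRAB pattern, 85 had 3 or more fingers and no match, 19 had fewer than 3 fingers and 1, Zfp939, had no coding model. The median was 10 fingers and the highest 36. A broader KRAB pattern, added after the protein models were read, matched 15 more genes. Of the 179 genes, 83 lay next to another numbered Zfp gene, and the exons of 57 overlapped those of another annotated gene. The strand setting of the counting is not given in the sources used here, so counts of those 57 genes may hold reads of the partner, and reads of near-identical paralogs are uncertain.

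One finger each of 4 genes that the genotype results turn on shows the shared frame. The coding DNA (GRCm38, equal to mm10) reads 5′ to 3′ along the gene, with the codons of the 2 cysteines and 2 histidines matched by the finger pattern, which hold the zinc, in capitals; other cysteine codons stand in lower case. Zfp560 lies at chr9:20348662-20348724 on the minus strand, Zfp944 at chr17:22339650-22339712 on the minus strand, Zfp940 at chr7:29845662-29845724 on the minus strand and Zfp710 at chr7:80081971-80082033 on the plus strand. Between any 2 of the 4, from 25 to 36 of the 63 bases were identical.
Zfp560: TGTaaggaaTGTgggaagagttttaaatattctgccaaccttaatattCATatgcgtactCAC
Zfp944: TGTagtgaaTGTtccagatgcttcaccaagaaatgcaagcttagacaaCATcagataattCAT
Zfp940: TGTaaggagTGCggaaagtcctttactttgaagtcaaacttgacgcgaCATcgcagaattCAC
Zfp710: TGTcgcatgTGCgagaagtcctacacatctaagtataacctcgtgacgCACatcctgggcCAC

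Promoters of 146 of the 179 genes were in a RefSeq table (GRCm38.p6). In windows of the 250 bases before the start, the CCAAT box (CCAAT, either strand) occurred in 47.95% of the 146 against 34.46% of all 27025 promoters. The GC box (GGGCGG, either strand) occurred in 42.47% against 32.94%. The TATA box (TATAAA) occurred in 4.11% against 12.97%. The median GC content was 53.6% against 52.0%, and the median number of CpG dinucleotides 11 against 6. The upstream part of 4 promoters is printed 5′ to 3′ on the gene's strand with CCAAT and GGGCGG, on either strand, in capitals: 2 genes that were higher and 2 that were lower in cKO oocytes in all 4 genotype contrasts that did not choose the genes. Zfp512 spans chr5:31452186-31452430 (plus strand), Zfp940 chr7:29853670-29853898 (minus), Zfp560 chr9:20385178-20385408 (minus) and Zfp944 chr17:22361401-22361650 (minus).
Zfp512: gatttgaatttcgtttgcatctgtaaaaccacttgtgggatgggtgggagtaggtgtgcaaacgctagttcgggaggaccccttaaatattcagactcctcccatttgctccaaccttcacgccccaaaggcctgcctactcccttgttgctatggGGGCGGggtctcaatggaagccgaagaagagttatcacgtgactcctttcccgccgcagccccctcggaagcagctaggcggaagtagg
Zfp940: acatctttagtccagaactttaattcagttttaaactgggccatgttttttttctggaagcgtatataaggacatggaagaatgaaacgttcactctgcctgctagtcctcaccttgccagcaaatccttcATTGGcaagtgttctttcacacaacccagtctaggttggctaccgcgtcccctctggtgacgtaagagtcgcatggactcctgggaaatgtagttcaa
Zfp560: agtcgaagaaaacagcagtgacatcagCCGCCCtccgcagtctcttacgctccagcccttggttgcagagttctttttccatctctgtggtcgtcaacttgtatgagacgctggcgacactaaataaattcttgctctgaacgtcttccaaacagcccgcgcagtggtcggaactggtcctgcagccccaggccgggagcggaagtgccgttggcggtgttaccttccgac
Zfp944: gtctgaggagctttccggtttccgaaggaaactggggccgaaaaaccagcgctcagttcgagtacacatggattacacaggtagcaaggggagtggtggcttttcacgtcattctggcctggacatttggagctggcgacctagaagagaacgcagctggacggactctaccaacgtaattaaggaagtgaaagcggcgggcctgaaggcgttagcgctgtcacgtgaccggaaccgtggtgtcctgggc
In these windows Zfp512 and Zfp560 held 1 GC box each, Zfp940 held 1 CCAAT box, and Zfp944 held neither.

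Gene counts summed to 4638718 to 8735914 reads per polyA library and 12319658 to 62675760 per RiboMinus library. Levels are CPM, counts scaled to a common library size with TMM factors within a library type. The targeted gene Exosc10 was at most 4.43 CPM in the cKO polyA oocytes and at least 43.0 CPM in the controls, and in RiboMinus at most 8.28 against at least 84.9. In every one of the 10 groups all 12 oocyte markers were detected, with summed levels of 6750 to 33300 CPM over the libraries. Several moved with genotype: 3 rose and 4 fell at GV3h, 8 rose at polyA MII (Zp2 by 1.95, Zp3 by 1.40 and Nlrp5 by 1.23 on the log2 scale), 5 rose and 1 fell in RiboMinus GV, and 2 rose and 3 fell in RiboMinus MII (Ooep -1.90). Summed per female, 2 rose and 2 fell at GV3h, 6 rose at polyA MII and 0 passed in RiboMinus GV, where 0 also passed without female V1131. In polyA GV oocytes 4 were lower. The 12 granulosa and cumulus markers summed to 16.3 to 139 CPM over the libraries, and 0 to 5 of the 12 were at 0 in all oocytes of a group. Among these markers Ptx3 was at 0 in 8 of the 10 groups. By contrast, Cyp19a1, the aromatase of granulosa cells, had group means of 11.9 to 99.0 CPM. Those of Kitl, the ligand of the oocyte receptor KIT, were 7.50 to 15.9 CPM. Of these, some moved with genotype too (edgeR): Cyp19a1 fell at GV3h (-0.77, adjusted p = 0.00992) and in RiboMinus GV (-1.22, adjusted p = 0.00185; 0.124 summed per female), Cyp11a1 rose in RiboMinus MII (5.00, adjusted p = 0.0432), and Fshr, Cyp11a1 and Kitl were higher in cKO oocytes at polyA GV (3.27, 1.58 and 0.79), where summed per female none of the 3 passed. The part of either marker list in the results was not tested.

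The 179 genes took a small and similar part of each library. In polyA libraries they held 1.12% ± 0.0292 of the counts in GV controls (SD, n = 7), 1.12% ± 0.0371 in GV3h controls (n = 8) and 1.01% ± 0.0633 in MII controls (n = 8). In the cKO oocytes the shares were 1.06% ± 0.108 (n = 15), 1.05% ± 0.0687 (n = 11) and 0.934% ± 0.0495 (n = 15). In RiboMinus the shares were 1.2% ± 0.0166 in GV controls (n = 8) and 1.238% ± 0.0959 in GV cKO oocytes (n = 7), and 1.08% ± 0.0519 (n = 3) and 0.988% ± 0.0627 (n = 4) at MII. Spike-in rows were not used here, so all levels are relative to the library.

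Per kilobase of exon, Zfp296, Zfp957 and Zfp655 were highest in polyA GV controls, at 185, 173 and 116 CPM per kb. Zfp296, a cofactor of pluripotency factors in stem cells, ranged from 310 to 455 CPM over the 7 GV controls (median 380). Zfp957 ranged from 500 to 593 CPM (median 569), and Zfp655 from 576 to 751 CPM (median 621). The exons of Zfp296 overlap those of Gemin7. The group means of the 179 genes had a median of 31.1 CPM in polyA GV controls, 30.1 at GV3h and 28.8 at MII, and no gene was at 0 in all oocytes of any group.

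Removal of Exosc10 was compared with control at each stage and in each library type. At polyA GV3h, where each genotype had 3 females and no oocyte had a part in choosing the genes, 75 of the 179 genes fell (41.9%) and 38 rose (21.2%), by edgeR's quasi-likelihood test with Benjamini-Hochberg adjustment over 13622 genes. Of all genes tested, 26.1% were called lower and 29.4% higher; of the 9204 genes with the same floor of 50 reads, 33.9% and 23.6%. The median log2 fold change was -0.26 over the 179 genes, -0.095 over genes with the same floor and 0.031 over all genes. With counts summed per female, 67 fell and 27 rose. With library totals in place of TMM factors the split was 53 lower and 52 higher, and the median of all genes moved to 0.204; the median of the 179 genes was then -0.09, which is -0.29 relative to that of all genes.

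At polyA MII, 50 of 176 tested genes fell (28.4%) and 14 rose (7.95%), against 22.7% and 19.8% of genes with the same floor and 18.6% and 19.0% of all genes tested. Summed per female, 31 fell and 10 rose, and without female V897 40 genes were called in place of 64. In RiboMinus GV oocytes, 37 fell (20.7%) and 44 rose (24.6%), against 22.0% and 19.3% with the same floor and 16.5% and 21.2% of all genes; with library totals the split was 30 and 56. In RiboMinus MII oocytes, 42 fell (23.5%) and 19 rose (10.6%), against 16.1% and 13.7% with the same floor and 9.78% and 13.9% of all genes. In polyA GV oocytes, which chose the genes, 56 were lower and 23 higher, beside 25.5% lower and 15.8% higher with the same floor and 18.5% and 22.0% of all genes. Library totals gave 41 and 37, and without control female V889 43 were called in all. Summed per female 0 were called there (40 at an unadjusted p under 0.05, smallest adjusted p 0.144), and with the female as a random effect 19 lower and 7 higher.

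**Figure D1:**
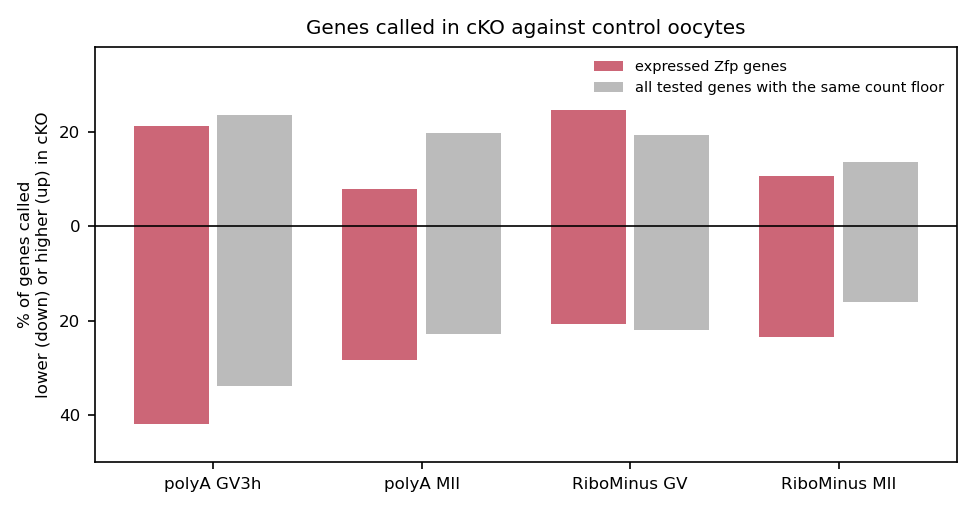
Share of genes (percent, y axis) called higher (upward bars) or lower (downward bars) in cKO oocytes in the 4 genotype contrasts that did not choose the genes (x axis), for the expressed Zfp genes (coloured) and for all tested genes with the same floor (grey). The lower share of the Zfp genes is 41.9% at polyA GV3h against 33.9%, and 20.7% in RiboMinus GV against 22.0%.

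The RiboMinus GV counts rested on 1 of the 2 cKO females. Without the 4 oocytes of female V1131 no gene was called, and without the 3 oocytes of female V1126 60 fell and 53 rose. The median absolute log2 fold change was 0.238 without V1131 and 0.661 without V1126. All 81 called genes kept their sign in both fits. In each of the 81, both cKO females already averaged on the same side of both control females. Leaving out 1 cKO female could therefore hardly turn a sign, and the kept signs add no separate evidence for these calls. Summed per female, 0 genes were called there (62 at an unadjusted p under 0.05, smallest adjusted p 0.124). A fit with the female as a random effect (limma voom) called 25 lower and 27 higher. Leaving out control female V1132 or V1133 left 41 and 15 calls.

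Over all oocytes, lower calls made up more of the KRAB genes than of the other multi-finger genes in the 4 contrasts. Of the 74 KRAB genes, 38 fell and 8 rose at polyA GV3h (median log2 fold change -0.42), whereas of the 85 genes with 3 or more fingers and no KRAB match 29 fell and 26 rose (median -0.03). Summed per female these were 31 and 7 against 28 and 17. At polyA MII the counts were 26 lower and 6 higher (median -0.32) against 19 and 6 (median -0.13). Summed per female, the KRAB genes had 15 lower and 5 higher calls there and the others 13 and 5. In RiboMinus GV the counts over oocytes were 22 and 7 (median -0.36) against 11 and 31 (median 0.20), and in RiboMinus MII 28 and 2 (median -1.05) against 12 and 15 (median -0.09). As shares, 51.4% of the KRAB genes fell at GV3h, 35.1% at polyA MII, 29.7% in RiboMinus GV and 37.8% in RiboMinus MII, beside 33.9%, 22.7%, 22.0% and 16.1% of genes with the same floor. For the other multi-finger genes these shares were 34.1%, 22.4%, 12.9% and 14.1%. These are counts with no test of the difference between the classes. Without female V1131, or summed per female, neither class had a call in RiboMinus GV. Without control female V1133 1 KRAB gene fell and 2 rose there, against 1 and 10 of the others, and without V1132 10 fell and 2 rose against 5 and 19. With library totals the GV3h counts were 25 lower and 12 higher for KRAB genes and 21 and 33 for the others; with the broader KRAB pattern they were 45 and 10 of 89, and 22 and 24 of 70.

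The classes also differed in other features. The KRAB genes had a median of 12 fingers against 9, a median exon length of 4553 bases against 5897, and lay next to another numbered Zfp gene in 49 of 74 cases against 33 of 85. Their exons overlapped another gene in 12 cases against 38. Their median level in polyA GV controls was 30.0 CPM against 29.2 CPM. The part of length, overlap and neighbours in the class counts was not tested.

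**Figure D2:**
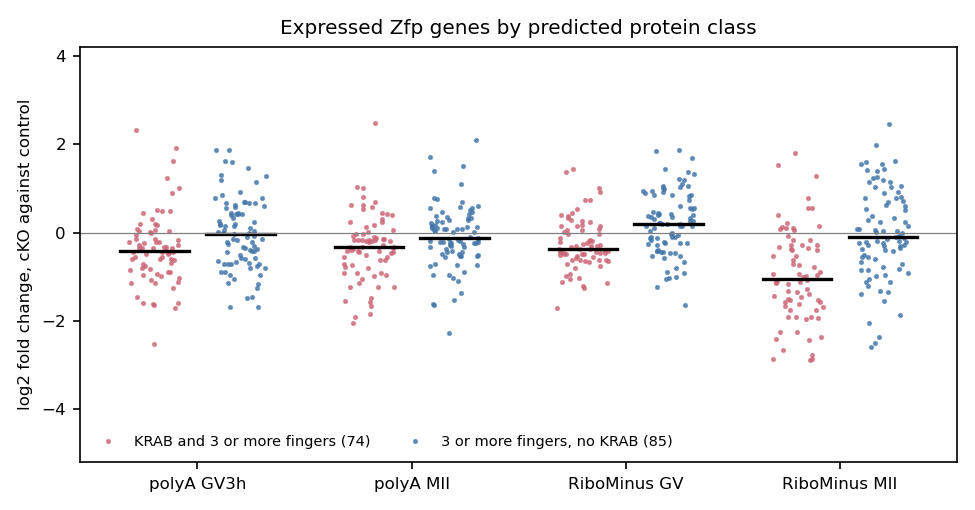
Log2 fold change of cKO against control (y axis) in 4 genotype contrasts (x axis), 1 point per gene, for the 74 KRAB genes and the 85 other genes with 3 or more fingers; black bars are medians. The KRAB medians are -0.42, -0.32, -0.36 and -1.05, each below that of the other class.

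The proteins that act with KRAB domains were given by a list of 17 genes. At polyA GV3h 7 of them rose and 6 fell, at polyA MII 4 of 15 rose and 3 fell, in RiboMinus GV 7 rose and 1 fell, and in RiboMinus MII 4 of 16 rose and 4 fell. Summed per female, 5 rose and 6 fell at GV3h, 3 rose and 0 fell at polyA MII, and 0 were called in RiboMinus GV. Without female V1131 0 of 16 were called in RiboMinus GV, and with the female as a random effect 3 rose and 1 fell there and 2 rose and 2 fell in RiboMinus MII. Leaving out 1 female or oocyte left 3 to 7 calls in RiboMinus MII. Of all genes tested, 29.4%, 19.0%, 21.2% and 13.9% rose and 26.1%, 18.6%, 16.5% and 9.78% fell in these contrasts. Trim28, the corepressor that binds the KRAB domain, rose in all 4: its mean was 171 against 88.4 CPM at GV3h (log2 fold change 0.93 ± 0.15 (SE), edgeR adjusted p = 2.21e-05), and its log2 fold change was 0.58 ± 0.12 at polyA MII, 1.06 ± 0.21 in RiboMinus GV and 1.52 ± 0.23 in RiboMinus MII. The RiboMinus GV rise of Trim28 was 0.59 (edgeR adjusted p = 0.236) without female V1131, 0.86 (0.0597) without female V1133 and 1.02 (0.133) summed per female; with the female as a random effect it passed (limma voom, adjusted p = 0.0214). Setdb1 rose at polyA MII (0.29 ± 0.10, edgeR adjusted p = 0.026; 0.248 summed per female, 0.0655 with the female as a random effect and 0.0630 to 0.406 without female V897, V836 or V853) and had a log2 fold change of 0.03 ± 0.09 at GV3h. Resf1, a regulator of SETDB1 at retroelements, fell at GV3h by 0.73 ± 0.09 on the log2 scale and at polyA MII by 0.51 ± 0.10, the second lost summed per female (adjusted p = 0.149) and without female V897 (0.265).

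Over the 4 contrasts that did not choose the genes, 9 genes were lower in all (5.03%) and 4 were higher in all (2.23%), near the 4.01% and 2.21% of 9210 genes with the same floor. Another 25 were called in none (14.0% against 16.6%), and 8 were higher in one and lower in another (4.47% against 10.1%). The genes higher in all were Zfp512, Zfp940, Zfp260 and Zfp35; of those lower in all, the rule named Zfp560, Zfp944, Zfp398 and Zfp710.

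Zfp512, with 3 fingers, was called higher in each. At polyA GV3h the controls ranged from 4.44 to 12.3 CPM (median 10.3) and the cKO oocytes from 28.9 to 42.2 CPM (median 36.1). The groups did not overlap, as was so for 13.2% of all genes tested there. The log2 fold change was 1.88 ± 0.17 (SE, edgeR adjusted p = 2.02e-08; 0.000364 summed per female). At polyA MII the medians were 3.48 CPM in controls and 17.3 CPM in cKO oocytes, with ranges of 1.21 to 9.45 and 7.44 to 34.0 CPM that overlapped (2.10 ± 0.36, edgeR adjusted p = 3.59e-05). In RiboMinus MII the 3 controls read 16.2, 9.95 and 19.6 CPM and the 4 cKO oocytes 41.8, 48.5, 47.4 and 40.0 CPM, with no overlap, as for 36.5% of all genes tested there (1.6 ± 0.31, edgeR adjusted p = 0.00352).

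Zfp940, a KRAB gene on chromosome 7, followed the same direction. At polyA GV3h the controls ranged from 5.18 to 34.1 CPM (median 15.5) and the cKO oocytes from 36 to 67.0 CPM (median 53.3), without overlap (1.61 ± 0.25, edgeR adjusted p = 1.18e-05). At polyA MII the log2 fold change was 2.48 ± 0.35, with medians of 3.60 and 23.4 CPM. In RiboMinus GV it was 0.74 ± 0.26 (edgeR adjusted p = 0.032; 0.188 summed per female, 0.157 with the female as a random effect), and the 2 groups overlapped. Zfp260, which acts with GATA factors in the heart, rose by 1.15 ± 0.17 on the log2 scale at GV3h and by 1.72 ± 0.23 at polyA MII, where the controls reached 23.3 CPM at most and the cKO oocytes 25.3 CPM at least. Zfp35 rose by 0.79 ± 0.11 and 1.5 ± 0.22 on the log2 scale at the same stages.

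Zfp560, a KRAB gene with 15 fingers, was lower throughout. In RiboMinus MII the controls read 93.7, 76.7 and 92.1 CPM and the cKO oocytes 16.3, 5.16, 8.93 and 15.1 CPM, with no overlap (-2.88 ± 0.37, edgeR adjusted p = 0.000344). At polyA MII the controls ranged from 63.0 to 105 CPM (median 80.0) and the cKO oocytes from 20.9 to 51.5 CPM (median 36.6), also without overlap, as for 4.5% of all genes there (-1.13 ± 0.14, edgeR adjusted p = 7.23e-07). At polyA GV3h the ranges of 52.9 to 94.7 and 22.5 to 62.3 CPM overlapped (-0.94 ± 0.16, edgeR adjusted p = 4.24e-05).

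Zfp944, a KRAB gene on chromosome 17, had medians of 65.6 CPM in GV3h controls and 17.5 CPM in GV3h cKO oocytes (-1.61 ± 0.22, edgeR adjusted p = 2.59e-06). Its ranges, 36.8 to 86.1 and 11.2 to 40.0 CPM, overlapped. At polyA MII the log2 fold change was -1.23 ± 0.18 and in RiboMinus MII -2.36 ± 0.37. Zfp710, with no KRAB match, fell from a median of 7.73 to 2.55 CPM at GV3h (-1.69 ± 0.31, edgeR adjusted p = 7.49e-05); its exons overlap those of Gm44949. At polyA MII its adjusted p was 8.89e-05, and 0.0605 without female V897. Zfp398, also with no KRAB match, had medians of 49.2 and 23.6 CPM at GV3h (-1.04 ± 0.19) and 27.8 and 12.3 CPM at polyA MII (-1.61 ± 0.26). The call of Zfp710 in RiboMinus MII (-1.2 ± 0.40, edgeR adjusted p = 0.0471) was lost with library totals (adjusted p = 0.069), with no filter on low counts (0.121) and with the female as a random effect (0.0594), and it was lost when any 1 of the oocytes was left out (0.0592 to 0.121).

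In RiboMinus GV, without female V1131, none of these 8 genes passed. The log2 fold change of Zfp512 was then 0.60 in place of 1.45, that of Zfp940 0.29 in place of 0.74, that of Zfp260 0.29 in place of 0.98 and that of Zfp35 0.21 in place of 0.40. Those of Zfp560, Zfp944 and Zfp398 were -0.66, -0.74 and -0.48 in place of -1.20, -1.13 and -0.81, and that of Zfp710 -1.38 in place of -1.24. None of the 8 passed with counts summed per female (adjusted p from 0.124 to 0.299). With the female as a random effect Zfp512, Zfp560, Zfp944, Zfp398 and Zfp710 passed there, and Zfp940, Zfp260 and Zfp35 did not. In RiboMinus MII the call of Zfp940 was lost without female V1167 (1.21, adjusted p = 0.0533), and that of Zfp398 without control oocyte V1145_3 or V1145_4 (adjusted p = 0.0587 and 0.0582).

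**Figure D3:**
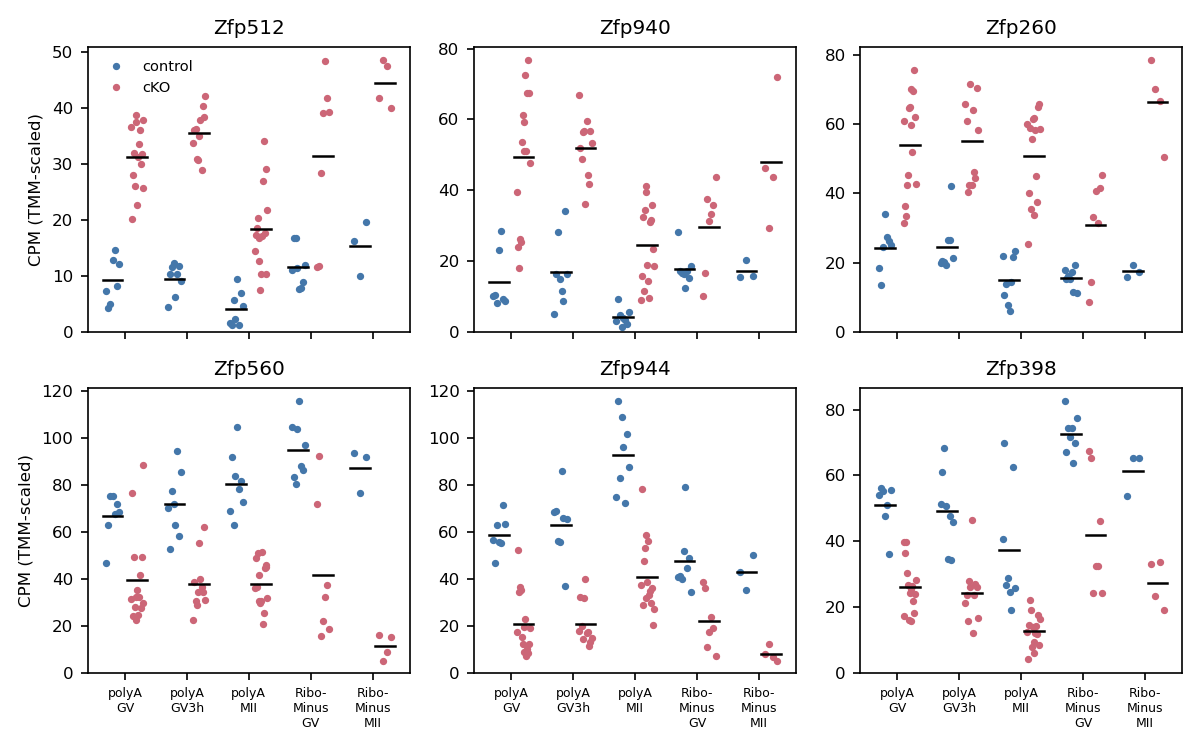
CPM (y axis, TMM-scaled within each library type) of 6 genes in every oocyte, by library type and stage (x axis), with control and cKO oocytes in separate colours and black bars at the means. Zfp512, Zfp940 and Zfp260 were called higher and Zfp560, Zfp944 and Zfp398 lower in cKO oocytes in each genotype contrast that did not choose the genes. Single oocytes of the 2 genotypes overlap in several of these, RiboMinus GV among them. In RiboMinus MII Zfp560 is at 76.7 to 93.7 CPM in controls and 5.16 to 16.3 CPM in cKO oocytes.

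The largest changes in each contrast were also listed, and whether they were particular to a stage was not tested. At polyA GV3h the largest rise was that of Zfp869, a KRAB gene (median 6.85 CPM in controls, 40.2 CPM in cKO oocytes; 2.32 ± 0.34, edgeR adjusted p = 6.85e-06), followed by Zfp715 (9.69 and 32.4 CPM; 1.92 ± 0.20). Zfp24, required for myelin formation, rose there by 1.88 ± 0.26 on the log2 scale. The largest fall was that of Zfp980, a KRAB gene, from 6.92 to 15.7 CPM in controls to 0.243 to 3.75 CPM in cKO oocytes, without overlap (-2.51 ± 0.31, edgeR adjusted p = 7.55e-07). Zfp982, also KRAB, fell from a median of 50.5 to 14.6 CPM (-1.70 ± 0.16).

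At polyA MII the largest fall was that of Zfp329, from 20.1 to 38.6 CPM in controls to 1.80 to 11.3 CPM in cKO oocytes (-2.28 ± 0.24, edgeR adjusted p = 3.35e-08). Zfp760 fell by 1.91 ± 0.24 and Zfp938 by 1.84 ± 0.40 on the log2 scale. In RiboMinus GV the largest rises were of Zfp263 (1.86 ± 0.52), Zfp281 (1.85 ± 0.36) and Zfp64 (1.68 ± 0.50), and, where the means of the females did not overlap, the largest falls were of Zfp69 (-1.70 ± 0.39), Zfp41 (-1.63 ± 0.35), Zfp563 (-1.25 ± 0.28) and Zfp710 (-1.24 ± 0.23). Without female V1131 the first 6 of these 7 had values of 0.33, 0.81, 0.76, -1.41, -1.23 and -0.94, none of which passed. Zfp710 did not pass without that female either (-1.38, edgeR adjusted p = 0.0536). In RiboMinus MII Zfp692 rose by 2.46 ± 0.39 on the log2 scale, from 4.09 to 8.20 CPM in the 3 controls to 24.7 to 44.9 CPM in the 4 cKO oocytes, and Zfp345 fell by 2.87 ± 0.31, from 112 to 131 CPM to 8.53 to 21.8 CPM.

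Among genes known for imprinting and retroelement silencing, 6 of a list of 10 were measured members. At GV3h 2 rose and 2 fell, at polyA MII 1 rose and 4 fell, in RiboMinus GV 2 rose and 1 fell, and in RiboMinus MII 3 fell and none rose. For this list and the next 2, of 6 genes each, the shares of genes with the same floor called higher and lower are 23.6% and 33.9% at GV3h, 19.8% and 22.7% at polyA MII, 19.3% and 22.0% in RiboMinus GV, and 13.7% and 16.1% in RiboMinus MII. Nothing particular to a list was tested. Summed per female, 0 of the 6 genes passed in RiboMinus GV, 0 rose and 1 fell at GV3h, and 1 rose and 1 fell at polyA MII. Without female V1131 0 passed in RiboMinus GV, without V897 1 rose and 1 fell at polyA MII, and leaving out 1 female left 1 to 5 calls at GV3h. In RiboMinus MII leaving out 1 female or oocyte left 1 to 4 calls in this list, 1 to 3 in the next and 3 in the last. Zfp708, which is linked to methylation of a retroelement family, fell from a median of 85.3 to 24.8 CPM at GV3h (-1.69 ± 0.22, edgeR adjusted p = 1.49e-06); its exons overlap those of Gm28557 and Rslcan18. Zfp809, which recognises retroviral DNA, rose at GV3h (0.89 ± 0.33, edgeR adjusted p = 0.0264; 0.0822 summed per female), and did not pass without female V993, V951 or V982 (0.0839 to 0.197). Zfp445, an imprint regulator, rose at polyA MII (0.58 ± 0.16, edgeR adjusted p = 0.00586) and at GV3h (0.44 ± 0.16, edgeR adjusted p = 0.0257; 0.116 summed per female). The second call was lost without female V946, V993, V951 or V995 (0.0719 to 0.0922).

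Among transcription factors of stem cells and early development, 6 of a list of 11 were measured members. At GV3h 3 rose and 1 fell, in RiboMinus GV 4 rose, at polyA MII 3 fell, and in RiboMinus MII 2 rose. In RiboMinus GV 0 passed without female V1131 or summed per female. At polyA MII 1 fell summed per female, 0 passed without female V897, and 1 fell without V853. Zfp217, a partner of corepressor complexes, had medians of 43.9 CPM in GV3h controls and 139 CPM in cKO oocytes (1.47 ± 0.24, edgeR adjusted p = 2.79e-05). Zfp281, a regulator of pluripotency genes, rose by 1.29 ± 0.24 on the log2 scale at GV3h. Zfp609, a partner of the cohesin loader, rose at GV3h from a median of 9.37 to 17.7 CPM (1.08 ± 0.31, edgeR adjusted p = 0.00508; 0.0993 without female V995 and 0.0875 with the female as a random effect) and fell at polyA MII from 16.2 to 4.25 CPM (-1.71 ± 0.31, edgeR adjusted p = 9.80e-05).

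Among RNA-associated members, 6 of a list of 10 were measured. At GV3h 1 rose and 2 fell, at polyA MII 1 of 5 fell, in RiboMinus GV 2 rose and 2 fell, and in RiboMinus MII 2 rose and 1 fell. In RiboMinus GV 0 passed without female V1131, summed per female or with the female as a random effect, and at polyA MII 0 passed summed per female or without female V897 or V853. Zfp207, which binds the checkpoint protein BUB3 at kinetochores, fell at GV3h from 246 to 301 CPM in controls to 154 to 210 CPM in cKO oocytes, without overlap (-0.60 ± 0.07, edgeR adjusted p = 3.04e-07). Zfp106, an RNA-binding protein needed by motor neurons, rose there by 0.40 ± 0.08 on the log2 scale and in RiboMinus MII by 1.43 ± 0.24; its exons overlap those of Gm26899. Zfp830 fell at GV3h by 0.37 ± 0.10 on the log2 scale, a call lost with library totals (-0.20, adjusted p = 0.0911).

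Calls in different library types were set side by side where the contrasts share no oocyte. Of the genes called at polyA GV3h (113) and in RiboMinus GV (81), 65 were called in both, which is 57.5% of the first and 80.2% of the second, near the 55.1% and 76.6% of genes with the same floor; all 65 had the same sign, 33 higher and 32 lower. Over genes with the same floor, 99.1% of those called in both had the same sign. Between polyA MII and RiboMinus MII, 28 genes were called in both and 25 had the same sign, which is 89.3% against 76.6% with the same floor. The exceptions were Zfp277 and Zfp939, higher in polyA and lower in RiboMinus, and Zfp664, the opposite.

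**Figure D4:**
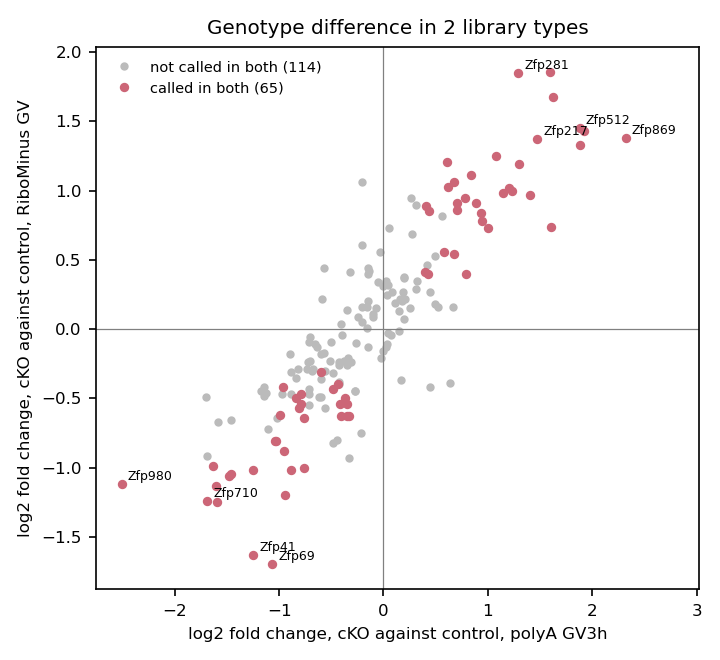
Log2 fold change of cKO against control in RiboMinus GV (y axis) against that in polyA GV3h (x axis), 1 point per gene; the 65 genes called in both are coloured. All 65 lie in the quadrants where both values have the same sign.

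Runs of 4 or more neighbouring genes of the set held both directions in some places and one in others. Their counts are a description beside the shares of genes with the same floor given above (33.9% lower and 23.6% higher at GV3h), and their RiboMinus GV calls were lost without female V1131. Among 9 neighbours at chr7:29768552-30072900, Zfp940 rose at GV3h by 1.61 on the log2 scale while Zfp383 fell by 1.63, and 3 of the 9 fell and 1 rose in all. Among 6 neighbours at chr17:21707741-22225616, all KRAB genes, 3 fell and none rose at GV3h, 2 fell and none rose in each of polyA MII, RiboMinus GV and RiboMinus MII. Among 6 at chr7:24134169-24316666, 3 fell and 1 rose at GV3h. Among 5 at chr6:47835661-48048911, 1 fell at GV3h, and in RiboMinus GV 4 rose and 1 fell.

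Culture for 3 h called no gene of the set. From GV to GV3h in cKO oocytes 0 of 179 passed edgeR's quasi-likelihood test (20 at an unadjusted p under 0.05, smallest adjusted p 0.0591; 1 by DESeq2), where 0.602% of all genes tested and 0.490% with the same floor were called. In controls, whose GV oocytes chose the genes, 0 were called as well (13 at an unadjusted p under 0.05; 1 by DESeq2), beside 0.519% of all genes and 0.337% with the same floor. In cKO oocytes 23 were called without female V857, 16 without V888 and 2 without V983, and in controls 4 without V856. Summed per female 0 were called in either genotype (2 in cKO oocytes and 4 in controls at an unadjusted p under 0.05).

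Maturation changed many. From GV3h to MII in polyA control libraries, 58 genes fell (32.4%) and 52 rose (29.1%), against 38.4% and 36.9% with the same floor and 34.6% and 32.5% of all genes tested. In cKO oocytes 60 fell and 60 rose (33.5% each), against 38.9% and 41.9% with the same floor and 40.1% and 35.0% of all genes. Summed per female, 51 fell and 51 rose in controls and 47 fell and 60 rose in cKO oocytes. With library totals the splits were 85 lower and 37 higher in controls and 106 and 41 in cKO oocytes, and the median of all genes moved from -0.056 to -0.423 and from -0.126 to -0.642; the medians of the 179 genes were then -0.47 and -0.59. In both genotypes 45 genes rose (25.1%) and 38 fell (21.2%), against 31.7% and 30.9% of genes with the same floor. From GV to MII in cKO oocytes 72 fell (40.2%) and 53 rose (29.6%), against 40.8% and 39.5% with the same floor and 41.7% and 33.1% of all genes; library totals gave 105 and 33, and sums per female 32 lower and 39 higher. In controls that span used the choosing oocytes and gave 56 lower and 47 higher, beside 37.8% and 35.1% of genes with the same floor and 33.3% and 30.1% of all genes, with 33 lower and 40 higher summed per female, and 82 and 33 with library totals.

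The steepest falls in polyA controls were of Zfp593, Zfp524 and Zfp428. Zfp593, a factor of ribosome biogenesis with 1 finger, went from 19.4 to 32.3 CPM in GV3h controls to 0.0 to 1.30 CPM in MII controls (-5.18 ± 0.45, edgeR adjusted p = 2.66e-09). In RiboMinus controls it read 4.88 to 11.2 CPM at GV and 4.31 to 10.1 CPM at MII, a log2 change of -0.18 ± 0.34 (edgeR adjusted p = 0.74). Zfp524, a telomere-binding protein, changed by -4.23 ± 0.51 in polyA controls and by -0.56 ± 0.25 in RiboMinus controls, and Zfp428 by -3.75 ± 0.56 and -0.11 ± 0.51. The exons of these 3 genes overlap those of E130218I03Rik, of Fiz1 and Gm44973, and of AC161166.1. The largest rises in polyA controls were of Zfp513, a gene of inherited retinal disease (24.5 to 82.0 CPM by medians; 1.81 ± 0.16), and Zfp740 (17.2 to 56.7 CPM; 1.76 ± 0.21), whose exons overlap Snx17 and Csad.

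In RiboMinus both of these genes fell in controls from GV to MII, Zfp513 by 1.17 ± 0.16 and Zfp740 by 1.19 ± 0.29 on the log2 scale (edgeR adjusted p = 1.91e-05 and 0.00335). In that series 36 genes fell (20.1%) and 15 rose (8.38%), against 20.3% and 21.6% with the same floor and 15.8% and 15.0% of all genes. Of 33 genes called in both control series, 10 had the same sign, 15 rose in polyA and fell in RiboMinus, and 8 did the opposite; 30.3% had the same sign against 29.2% of genes with the same floor. The polyA and RiboMinus series start from GV3h and GV oocytes of different females, and the difference between library types was not tested. Zfp957, with the highest level in polyA at MII, rose in polyA cKO oocytes from a median of 430 at GV3h to 1400 CPM (1.75 ± 0.11). Its medians in RiboMinus cKO oocytes were 257 CPM at GV and 321 CPM at MII.

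**Figure D5:**
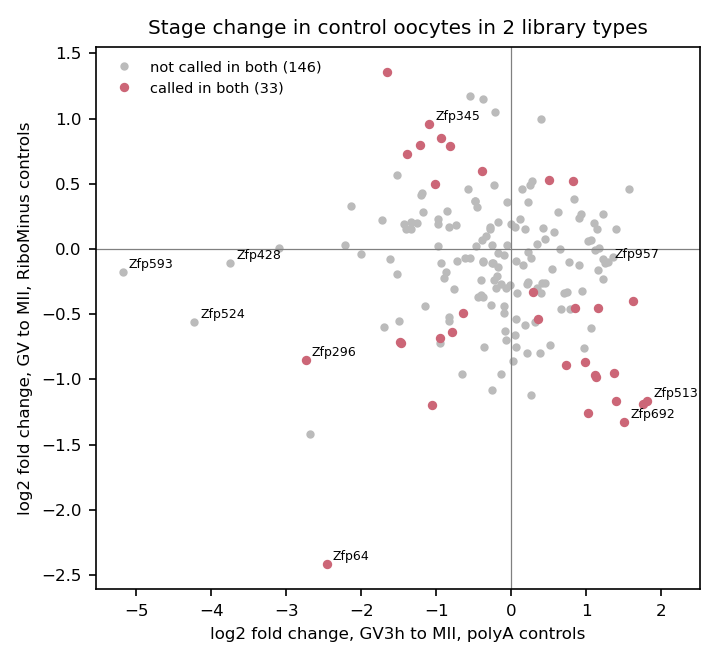
Log2 change from GV to MII in RiboMinus controls (y axis) against that from GV3h to MII in polyA controls (x axis), 1 point per gene; the 33 genes called in both are coloured. Zfp593 lies at -5.18 on the x axis and -0.18 on the y axis, and Zfp513 at 1.81 and -1.17.

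In RiboMinus cKO oocytes 56 genes fell (31.3%) and 6 rose (3.35%) from GV to MII, against 11.6% and 8.17% with the same floor and 8.67% and 7.4% of all genes tested. The median log2 change was -0.56 over the 179 genes and -0.015 over genes with the same floor. Summed per female 0 genes were called (66 at an unadjusted p under 0.05, smallest adjusted p 0.105), with the female as a random effect 17. Without female V1131 5 were called, without V1166 25, without V1167 33 and without the single oocyte V1166_1 37.

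The genotype difference in the stage change was tested as an interaction. In polyA from GV3h to MII, the change was lower in cKO oocytes for 29 genes (16.2%) and higher for 19 (10.6%), against 11.6% and 20% with the same floor and 10.8% and 14.0% of all genes; library totals gave 30 and 11, and sums per female 14 and 10. Without female V993 27 genes were called, and without V995 24. Zfp609 had the largest difference (-2.77 ± 0.46, edgeR adjusted p = 1.43e-05), followed by Zfp869 (-2.72 ± 0.73), Zfp715 (-2.47 ± 0.54) and Zfp24 (-2.38 ± 0.37). In RiboMinus from GV to MII it was lower for 37 (20.7%) and higher for 9 (5.03%), against 11.1% and 8.89% with the same floor and 7.0% and 7.85% of all genes, with all control MII oocytes from 1 female; with the female as a random effect 8 were called, without female V1132 21 and without V1133 30.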

How the data were processed

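Single-oocyte RNA-seq libraries of 64 polyA and 22 RiboMinus samples were used; 22 ribosomal RNA files were not used here. The deposited files hold raw read counts per gene, 1 file per oocyte. The submitters' processing notes name cutadapt 2.5, FastQC 0.11.8, STAR 2.7.2a, SAMtools 1.9, HTSeq 0.9.1, R 3.5.1, DESeq2 1.24.0 and the build mm10; the strand setting is not given in the sources used here. The line for reads aligned to several places was 0 in all 86 files. Reads outside any gene (5.855 to 14.17% in polyA, 8.338 to 12.404% in RiboMinus) and ambiguous reads (2.21 to 3.191% and 2.071 to 2.305%) stayed out of library sizes. No pair of libraries was identical.

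Each contrast was fitted on all genes of its groups with edgeR 4.0.16 in R 4.3.3 (filterByExpr, TMM, quasi-likelihood F test, two-sided), with Benjamini-Hochberg adjustment over all genes tested and calls at an adjusted p under 0.05. Log2 fold changes are given with their standard errors. Alternatives were DESeq2 1.42.0 and its size factors, library totals, no filter on low counts, sums of counts over each female's oocytes, a limma 3.58.1 voom fit in which females entered as a random effect, and leaving out each female (or each oocyte in RiboMinus MII). The edgeR fit was tested on simulated counts shaped like the polyA GV3h genotype contrast. The simulated oocytes were independent, with no spread between females, and the other fits were not tested this way.

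The members and gene lists were chosen with earlier results of these data known. Genes named in the text are those called with the largest changes each way whose female means (RiboMinus MII: oocytes) did not overlap, those called in 1 direction in all 4 contrasts (up to 4 each way, ranked by their smallest change), the 4 largest interactions, the 3 highest per kb, those at the threshold, and up to 3 per role list; genes of the KRAB partner list, genes with opposite calls and Zfp383 were named after their values were seen. Fingers (C2H2 pattern) and KRAB matches were counted in translated GENCODE M21 coding models, since no protein table was used; the broader KRAB pattern and the class, list and interaction counts under other settings were added after seeing the data. The C2H2 pattern took 2 to 4 residues between the cysteines, 12 to the first histidine and 3 to 5 between the histidines. Promoter windows came from RefSeq and finger coordinates from GENCODE M21 (GRCm38). Python 3.11.15, pandas 2.3.3 and Biopython 1.88 were used.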

Additional observations from a re-analysis of the deposited data

Results flagged for a closer look

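In 8 of 92 sets of oocyte values 1 oocyte stood apart from the rest of its group, where chance gives about 1 in 20. The check did not cover the polyA cKO groups (n = 15, 11 and 15) or the RiboMinus MII controls (n = 3). It therefore says nothing of outliers among those oocytes. Zfp940 read 28.2 CPM in the RiboMinus GV control oocyte V1132_1 (next 18.5), and Zfp944 read 79.3 CPM in V1133_1 of the same group (next 51.9). Zfp260 read 42.3 CPM in the polyA GV3h control V995_3 (next 26.6), and Zfp740 read 11.7 CPM in V995_1 of that group (next 16.8). In polyA MII controls, Zfp35 read 3.67 CPM in V836_2 (next 24.6), Zfp524 read 3.87 CPM in V836_1 (next 1.75), and Zfp428 read 2.08 CPM in V853_4 (next 0.825). The Zfp genes took 1.18% of the counts in the polyA GV control V889_4 (next 1.12%).

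For 21 of the 42 genes chosen by the naming rule, the change from before to after maturation differed between the genotypes in at least 1 library type by the interaction test (edgeR, adjusted over all genes). The rule itself takes the 4 largest interactions and genes with the largest changes in single contrasts. A high count among the 42 was thus partly set in advance. Of all 179 genes, 48 passed in polyA and 46 in RiboMinus, and the shares of genes with the same floor are given above. In polyA from GV3h to MII, 16 of the 42 passed. The difference on the log2 scale was -2.77 for Zfp609 (adjusted p = 1.43e-05), -2.72 for Zfp869 (0.00473), -2.47 for Zfp715 (0.000605), -2.38 for Zfp24 (5.38e-06) and -1.74 for Zfp217 (3.16e-05). It was -1.47 for Zfp760 (0.00152), -1.39 for Zfp938 (0.0281), -1.34 for Zfp740 (0.00214), -1.12 for Zfp329 (0.0251), -0.76 for Zfp692 (0.0147), -0.71 for Zfp513 (0.00542) and -0.28 for Zfp106 (0.0472). It was 0.46 for Zfp830 (0.0279), 0.71 for Zfp35 (0.0359), 1.28 for Zfp345 (0.000227) and 1.72 for Zfp41 (0.0297). Summed per female, 7 of the 16 did not pass (Zfp35, Zfp329, Zfp938, Zfp692, Zfp513, Zfp106 and Zfp830), and with the female as a random effect 5 did not. Leaving out some female ended the call of 7.

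In RiboMinus from GV to MII, 13 passed. The difference was -2.84 for Zfp281 (0.00298), -2.62 for Zfp263 (0.0395), -2.47 for Zfp345 (0.000227), -2.24 for Zfp329 (0.00608), -2.03 for Zfp609 (0.00596), -2.0 for Zfp982 (0.0179), -1.74 for Zfp560 (0.0291), -1.69 for Zfp938 (0.0288) and -1.14 for Zfp445 (0.0197). It was 0.70 for Zfp513 (0.0406), 0.96 for Zfp106 (0.0161), 1.36 for Zfp692 (0.0164) and 2.71 for Zfp41 (0.00665). All 3 RiboMinus MII controls came from 1 female. With the female as a random effect (limma voom), 8 of the 179 Zfp genes passed this RiboMinus test in place of 46, and of the 13 named here Zfp345 (adjusted p = 0.0129), Zfp41 (0.0351) and Zfp329 (0.0359) passed, while the other 10 did not (0.0640 to 0.329). Leaving out some female or oocyte ended the call of 9 of the 13. The RiboMinus GV difference of Zfp263 between genotypes was 1.86 over all oocytes and 0.33 without female V1131.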

How the results depend on the processing

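No paired analysis was possible because genotype did not vary within a female and replicate names were shared only between RiboMinus and ribosomal RNA libraries. With counts summed per female, calls among the Zfp genes numbered 0 at polyA GV, 41 at polyA MII, 0 in RiboMinus GV, 71 from GV to MII in polyA cKO oocytes, 0 in RiboMinus cKO oocytes and 24 for the polyA interaction; KRAB genes had 20 at polyA MII and 0 in RiboMinus GV, and the other multi-finger genes 0 there. With the female as a random effect, calls numbered 26 at polyA GV, 52 in RiboMinus GV (16 of them KRAB genes), 17 from GV to MII in RiboMinus cKO oocytes and 8 for the RiboMinus interaction. DESeq2 called 1 from GV to GV3h in each genotype. Leaving out 1 female or oocyte gave 43 to 100 calls at polyA GV, 89 to 128 at GV3h, 40 to 67 at MII, 0 to 113 in RiboMinus GV (KRAB genes 0 to 42, others 0 to 58) and 41 to 63 in RiboMinus MII. From GV to GV3h it gave 0 to 4 in controls and 0 to 23 in cKO oocytes, from GV to MII 74 to 106 and 97 to 125, from GV3h to MII 89 to 114 and 110 to 120, in RiboMinus 35 to 46 and 5 to 71, and for the interactions 24 to 54 in polyA and 21 to 59 in RiboMinus. The causes were not tested. Of 75 values of named genes none reversed sign in the alternatives run. Many of these genes were chosen for large changes with female means or oocyte values that did not overlap, so a reversal was unlikely in advance. Of these values, 16 of 65 lost their call summed per female and 8 of 75 with the female as a random effect. Calls were lost for 2 with library totals, 2 with no filter, 0 with DESeq2 and 21 on leaving out some replicate.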
